A study of Coturnix japonica with 24 samples.

Results

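Daily variation within short days was described from the 12 short-day arrays of a series of 24, chosen by their labels: 6 zeitgeber times (ZT2, ZT6, ZT10, ZT14, ZT18 and ZT22), each with 2 arrays. The birds were male Japanese quail, 8 weeks old and already held for 4 weeks under 6 h of light and 18 h of dark, which then stayed under that cycle for 2 more weeks. The tissue was the mediobasal hypothalamus, the floor of the hypothalamus above the pituitary stalk. It was taken from 6 birds every 4 h over 24 h, and RNA of 3 birds was pooled for each array. ZT is not defined in the labels and was taken as the time since lights on, so that ZT2 lay in the light, ZT6 at its end, and ZT10 to ZT22 in the dark. The lit times (ZT2 and ZT6) were compared with the dark times (ZT14 and ZT18), with 4 arrays on each side, and a 24 h cosine was fitted over all 6 times. Both ask which transcripts of this tissue vary over the day when the photoperiod is held short.

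Circadian clocks run as a transcriptional loop, in which ARNTL with CLOCK or NPAS2 switches on the PER and CRY repressors as well as the NR1D nuclear receptors, and NR1D receptors in turn repress ARNTL. Heat shock proteins are chaperones that fold other proteins, and in birds and mammals their transcripts also follow the daily rhythms of body temperature and activity. In quail the mediobasal hypothalamus and the adjoining pars tuberalis of the pituitary hold the photoperiodic switch, in which thyrotropin acts on the deiodinase genes DIO2 and DIO3.

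Transcripts were measured on an Affymetrix array of chicken probes, as fluorescence intensity per probe set, a group of probes for 1 transcript. Quail transcripts that differ from the chicken probes can give a lower signal, so levels of different genes are not compared. Array medians ran from 10.9 to 21.05 intensity units, and the first array was brighter than the second at 6 of 6 times, by 1.23 to 1.85 times. All intensities below were first brought to a common array median and are given on a linear scale. Background was set, array by array, at the 95th percentile of 746 probe sets that lack the chicken prefix, and 38.1% to 49.6% of the probe sets lay above it. The log2 ratio of 3′ to 5′ ACTB probes, a measure of RNA integrity, was 1.52 to 1.72 on the arrays of the lit times and 1.59 to 1.69 on those of ZT14 and ZT18. At the other dark times it was 1.49 and 2.00 at ZT10 and 2.00 and 1.78 at ZT22. That of GAPDH was 0.08 to 0.32 on lit and 0.16 to 0.36 on ZT14 and ZT18 arrays. It split by array number without overlap, at 0.08 to 0.17 on arrays numbered 1 and 0.26 to 0.36 on those numbered 2, and values within each set, or with the array number as a block, stand beside several results below. The neuron markers were present, with SNAP25 at a mean intensity of 7854 on lit and 7785 on dark arrays, and all 13 measured neuron markers lay above background on at least 9 of 12 arrays. With 2 pools a time, the error behind a p-value is the spread between pools together with any difference between the arrays numbered 1 and 2. It was estimated over the short-day and long-day arrays together. For the cosine it also includes any departure of the time means from a cosine shape. The number of arrays limits the precision.

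Few probe sets passed a test of time of day. Of 38439 probe sets, 7 were higher in the light than in the dark (0.0182% of those tested) and none was lower (0%), by limma with Benjamini-Hochberg adjustment at 0.05. The 24 h cosine called 7 (0.0182%), and the F test of any difference among the 6 times called 6 (0.0156%). A single time stood apart from the mean of the other 5 in 8 cases (0.00347% of probe sets times contrasts), namely 4 higher at ZT2, 1 higher at ZT6, 2 lower at ZT10 and 1 lower at ZT14. At ZT18 and ZT22 limma called 0, with 1217 and 1554 probe sets at an unadjusted p under 0.05. The light minus dark test had 1625 and the cosine 1757 probe sets at that level, where a flat distribution of p gives 1922. The 4 tests use the same arrays and are not independent of each other. Together they called 11 probe sets: 8 of the 7 genes CGA, HSPA2, HSPA5, DNAJA1, HSP90B1, BAG3 and NR1D2, a dim probe set of NEO1, and 2 without a gene name, called the first and second unnamed probe set here in the order of their cosine p.

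**Figure D1:**
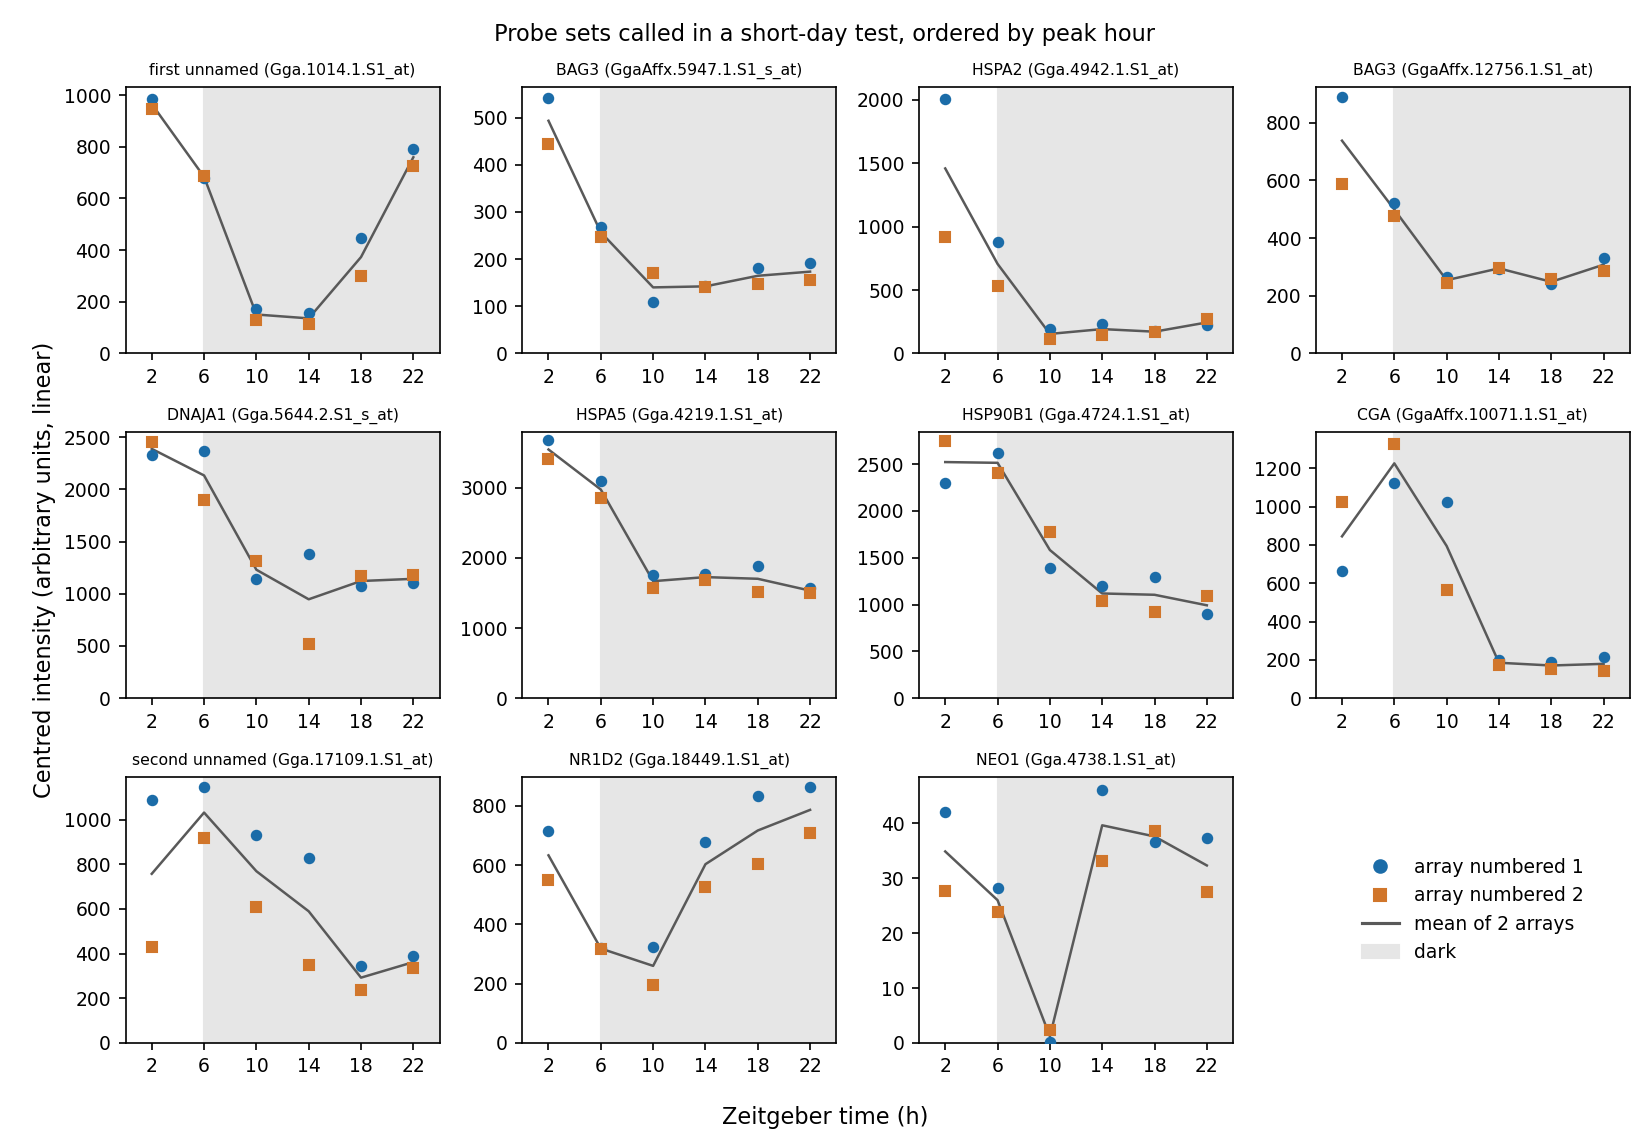
Centred intensity (linear, arbitrary units) of the 11 called probe sets against zeitgeber time, with circles for the arrays numbered 1, squares for those numbered 2, a line through the means of the 2 arrays and the dark shaded. The chaperone probe sets were highest at ZT2 or ZT6, CGA stayed high until ZT10, and NR1D2 was highest at ZT22.

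CGA had the smallest p of all probe sets in the light minus dark test. It encodes the glycoprotein hormone alpha subunit, the common chain of thyrotropin, luteinising hormone and follicle-stimulating hormone. Its intensity was 666 and 1023 at ZT2, 1124 and 1329 at ZT6, 1022 and 567 at ZT10, 197 and 172 at ZT14, 187 and 154 at ZT18, and 217 and 141 at ZT22. All 6 arrays from ZT2 to ZT10 lay above all 6 from ZT14 to ZT22, so the high level outlasted the light by at least the ZT10 sampling. It averaged 1036 ± 277 in the light and 178 ± 18.97 in the dark (SD, n = 4 each). The light minus dark difference was 2.50 ± 0.22 on the log2 scale (SE; limma adjusted p = 1.304e-06), a 5.64-fold difference. The cosine amplitude was 1.66 ± 0.15 log2 units and the fitted peak hour 5.97 ± 0.34 (adjusted p = 2.805e-07), and ZT6 alone stood 1.92 above the other times (adjusted p = 0.00119). Light minus dark was 2.16 among arrays numbered 1 and 2.83 among those numbered 2, and both calls held in 12 of 12 fits that left out 1 array.

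CGA is also a marker of the anterior pituitary, and none of the other 11 measured pituitary markers passed the light minus dark test or the cosine. Their summed intensity was 403 to 585 on lit and 407 to 547 on dark arrays. Light minus dark was above 0 in 8 of all 12 pituitary markers, CGA included, with a median of 0.19. That median was -0.19 among arrays numbered 1 (6 of 12 above 0) and 0.85 among those numbered 2 (10 of 12). Of all 13009 genes, 51.5% were above 0, with a median of 0.01. Among arrays numbered 1 it was 7038 genes, and among those numbered 2 it was 6310. The part of pituitary tissue in the CGA result was not tested. TSHB, the thyrotropin beta subunit, lay above background on 1 of 12 arrays, and POU1F1, FSHB and GHRHR on 0 of 12. GH and PRL, the other main pituitary hormones, lay above it on 2 and 8 of 12. In bulk tissue, a change in the number of cells of a type and a change in RNA per cell cannot be told apart.

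Cytosolic chaperones and their cofactors made up the largest group of named genes higher in the light. HSPA2, an HSP70 family chaperone, had intensities of 2003 and 914 at ZT2 and of 879.7 and 533 at ZT6. It had 196 and 112 at ZT10, 235 and 148 at ZT14, 177 and 166 at ZT18, and 221 and 268 at ZT22. The 4 lit arrays lay above all 8 dark ones, and ZT2 was the highest time. HSPA2 was 2.42 ± 0.28 log2 units higher in the light than in the dark (adjusted p = 1.295e-04), 5.34-fold, with a mean of 1083 ± 638 in the light and 182 ± 37.6 in the dark (SD, n = 4 each). Its cosine peaked at ZT 2.99 ± 0.55 h with an amplitude of 1.45 ± 0.21 (adjusted p = 0.003948). That cosine call was lost without the first ZT2 array (adjusted p = 0.0635), whereas light minus dark held without any one of the 12 arrays.

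DNAJA1, an HSP40 co-chaperone that hands substrates to HSP70 proteins, had intensities of 2325 and 2450 at ZT2, 2367 and 1899 at ZT6, 1142 and 1318 at ZT10, 1377 and 517 at ZT14, 1075 and 1170.0 at ZT18, and 1102 and 1183 at ZT22. Every lit array lay above every dark one, and the second ZT14 array was the lowest of the 12. The difference was 1.21 ± 0.20 log2 units (adjusted p = 0.02281), and the cosine amplitude was 0.70 ± 0.11 with a peak hour of 3.66 ± 0.62 (adjusted p = 0.02651). A dimmer DNAJA1 probe set, above background on 11 of 12 arrays, gave a difference of 0.64 ± 0.48 and passed neither test. The light minus dark call was lost in 6 of 12 fits that left out 1 array (the second of ZT2 or ZT14, or either of ZT6 or ZT18), with adjusted p up to 0.149, and the cosine call in 5 (either of ZT2 or ZT6, or the second of ZT14), with adjusted p up to 0.206.

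BAG3, a nucleotide exchange factor for HSP70 proteins in protein clearance, had intensities of 889 and 586 at ZT2, 522 and 475 at ZT6, 264 and 244 at ZT10, 293 and 297 at ZT14, 239 and 257 at ZT18, and 331 and 284 at ZT22. The lit arrays again lay above all dark ones, with ZT2 above ZT6. The difference between light and dark was 1.14 ± 0.20 log2 units (adjusted p = 0.03687), and the call was lost in 8 of 12 fits that left out 1 array (the first of ZT2, the second of ZT14, or either of ZT6, ZT18 or ZT22), with adjusted p up to 0.223. A second BAG3 probe set gave 1.21 ± 0.22 (adjusted p = 0.05638) and stood 1.52 higher at ZT2 than at the other times (adjusted p = 0.01638).

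The list of cytosolic heat shock genes, which also holds the mitochondrial HSPE1 and HSPD1, had 23 measured members of 26. Of these, 3 rose in the light (HSPA2, DNAJA1 and BAG3), 0 fell, and 20 did not pass the test. Of all 13009 genes, 6 rose and 0 fell by that test. The light minus dark estimate was above 0 in 20 of 23, where 51.5% of all 13009 genes were. In 8 of 23 the 4 lit arrays lay above the 4 dark ones, against 1.51% of all genes, and none lay wholly below, against 1.08%. The count wholly above was 4 without centring (68 of all 13009 genes), 8 with quantile normalization (212) and 6 with a pseudocount of 16 (124). The list median was 0.57 log2 units, against 0.01 for all genes and 0.03 for the 5400 genes above background on 12 of 12 arrays. It was 0.37 among arrays numbered 1, 0.53 among those numbered 2, 0.37 without the second ZT14 array, and between 0.42 and 0.63 without any other lit or dark array. An unadjusted cosine p under 0.05 was found for 10 of 23 members, against 4.63% of all genes. The members were chosen with earlier results of these data known, so these shares describe the list and are no separate test.

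Members that missed the threshold had smaller or more variable differences. DNAJA4, another HSP40 member, averaged 1081 ± 288 in the light and 381 ± 128 in the dark (1.54 ± 0.39 log2 units, adjusted p = 0.837). AHSA1, which stimulates the ATPase of HSP90, averaged 1444 ± 121 in the light and 829.6 ± 205 in the dark (0.83 ± 0.18, adjusted p = 0.2963). Its estimate ran from 0.61 to 1.06 when 1 array was left out. HSP90AA1, the stress-inducible cytosolic HSP90, had lit intensities of 5990.0, 7904, 5723 and 6751 and dark intensities of 4133, 3803, 4188 and 4622 (0.65 ± 0.17, adjusted p = 0.837). Its second probe set had lit values of 4224 to 4815 and dark values of 2451 to 2629 (0.86 ± 0.17, adjusted p = 0.1062). On both probe sets of HSP90AA1 the groups did not overlap, and both passed with the array number as a block (adjusted p = 0.0271 and 0.00426). HSPA8, the constitutive HSP70, differed least among the members without overlap, with 6277 ± 418 in the light and 4981 ± 266 in the dark (0.33 ± 0.13). HSPE1 and HSPD1, the mitochondrial chaperonin pair, gave 0.90 ± 0.29 and 0.60 ± 0.22, and their lowest dark value also came from the second ZT14 array (112 for HSPE1 and 525 for HSPD1). Without that array they gave 0.39 and 0.31, and without the first ZT14 array 1.41 (adjusted p = 0.00516) and 0.88 (adjusted p = 0.188).

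A pair of chaperones of the endoplasmic reticulum was also higher in the light. HSPA5, the HSP70 protein of that compartment (also called BiP), had intensities of 3684 and 3410.0 at ZT2, 3103 and 2849 at ZT6, 1763 and 1574 at ZT10, 1766 and 1689 at ZT14, 1888 and 1518 at ZT18, and 1568 and 1500.0 at ZT22. The 4 lit arrays lay above the 8 dark ones, and the dark times differed little from one another. HSPA5 was 0.92 ± 0.14 log2 units higher in the light (adjusted p = 0.004312), 1.90-fold, and ZT2 alone stood 0.93 above the other times (adjusted p = 0.01638). Its light minus dark call was lost without the second ZT18 array (adjusted p = 0.0882) and held in the other 11 such fits, and the cosine did not pass (amplitude 0.53 ± 0.10, adjusted p = 0.1859).

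HSP90B1, the HSP90 protein of the endoplasmic reticulum, had intensities of 2294 and 2747 at ZT2, 2620.0 and 2405 at ZT6, 1391 and 1774 at ZT10, 1196 and 1040.0 at ZT14, 1291 and 916 at ZT18, and 898 and 1086 at ZT22. The lit arrays were highest, and both ZT10 arrays lay between them and the later dark arrays. The light minus dark difference was 1.19 ± 0.20 (adjusted p = 0.02637), and the cosine peaked at ZT 5.23 ± 0.62 h with an amplitude of 0.72 ± 0.12 (adjusted p = 0.02651). The light minus dark call was lost in 5 of 12 fits that left out 1 array (either of ZT6, or the second of ZT2, ZT14 or ZT18; adjusted p up to 0.408), and the cosine call in 6 (either of ZT2 or ZT6, or the second of ZT14 or ZT18; adjusted p up to 0.215). A dimmer HSP90B1 probe set, above background on 3 of 12 arrays, had a light minus dark estimate of -0.13.

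Of the 18 measured members of 22 on the endoplasmic reticulum list, 2 rose in the light (HSPA5 and HSP90B1), 0 fell, and 16 did not pass. Of all 13009 genes, 6 rose and 0 fell. The estimate was above 0 in 14 of 18 (51.5% of all genes), the 4 lit arrays lay above the 4 dark ones in 4 (1.51% of all genes), and the list median was 0.25 log2 units, 0.18 among arrays numbered 1 and 0.39 among those numbered 2. HERPUD1, which takes part in degrading misfolded proteins, had lit values of 232, 151, 139 and 128 and dark values of 75.4, 42.3, 82.3 and 60.6, which did not overlap (1.30 ± 0.27, adjusted p = 0.2267). HERPUD1 passed with the array number as a block (adjusted p = 0.0271) and without the first ZT14 array (0.0295). Neither disulphide isomerase described here passed. PDIA6 averaged 899 ± 77.4 in the light and 508 ± 185 in the dark (0.92 ± 0.23, adjusted p = 0.751), and it passed without the first ZT14 array (1.28, adjusted p = 0.00373) but gave 0.56 without the second. P4HB averaged 892 ± 415 in the light and 1262 ± 116 in the dark (-0.63 ± 0.24, adjusted p = 0.9997), which became -0.30 without the second ZT2 array, -0.41 without the first ZT6 array and -0.96 without the first ZT2 array. The sum of the 18 members was 11560 to 12730 on lit and 7280 to 9438 on dark arrays. That sum includes the 2 called genes, HSPA5 (mean 3262 in the light, 1715 in the dark) and HSP90B1 (2517 and 1111). It was not taken without them, so it does not describe the other members.

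**Figure D2:**
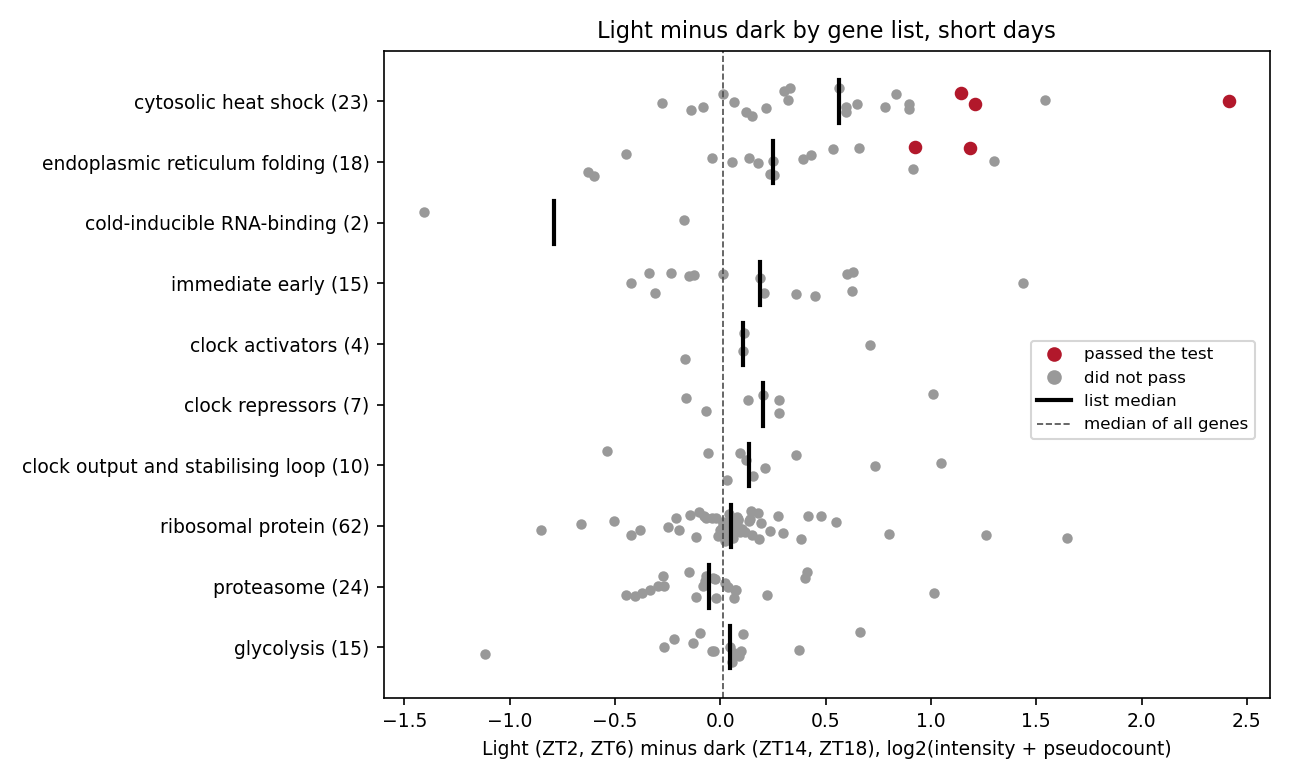
Light (ZT2 and ZT6) minus dark (ZT14 and ZT18) difference in log2(intensity + pseudocount) for each measured member of 10 gene lists, 1 probe set a gene, with the list median as a bar and the median of all genes as a dashed line. The 5 members that passed the test (red) belong to the cytosolic heat shock and endoplasmic reticulum lists, whose medians were 0.57 and 0.25.

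No probe set passed the light minus dark test on the low side. RBM3, an RNA-binding protein whose transcript is induced by mild cold in mammals, had the lowest light minus dark estimate among the 10 genes with the smallest p in that test. It had 32.2 and 86.4 at ZT2, 108 and 177 at ZT6, 117 and 55.4 at ZT10, 178 and 210.3 at ZT14, 309.6 and 241 at ZT18, and 160.3 and 155 at ZT22. The lit arrays lay below the 4 dark ones by a narrow margin (177 against 178). Light minus dark was -1.41 ± 0.30 for RBM3 (adjusted p = 0.2963), and -1.75 to -1.06 when 1 array was left out. Of its other probe sets, the brightest gave -0.81 ± 0.38 (-0.53 without the first ZT14 array), a dimmer one -0.31 ± 0.45, and one above background on 1 of 12 arrays 0.96 ± 0.70. RANBP3, a cofactor of nuclear export, had a mean of 90.1 ± 49.5 in the light and 219 ± 45.5 in the dark (-1.39 ± 0.30, adjusted p = 0.2963), without overlap of the groups. RANBP3 passed with quantile normalization (adjusted p = 0.0431) and with the array number as a block (0.038). Its estimate ran from -1.81 to -0.97 when 1 array was left out. The only other measured member of the cold-inducible list, SRSF5, gave -0.17.

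Among clock genes, NR1D2 alone passed a test. NR1D2 (REV-ERB beta) is a repressor of ARNTL and the stabilising arm of the clock. Its brightest probe set had intensities of 715 and 551 at ZT2, 320.0 and 317 at ZT6, 325 and 195 at ZT10, 679 and 527 at ZT14, 832 and 602 at ZT18, and 864 and 709 at ZT22. The level was lowest at the end of the light and at ZT10 and highest late in the dark. The cosine amplitude was 0.81 ± 0.11 log2 units and its peak hour 20.5 ± 0.53 (adjusted p = 0.003363), and the F test of time gave adjusted p = 0.04433. The peak hour was 20.1 among arrays numbered 1 and 20.8 among those numbered 2, and the cosine call held without any one of the 12 arrays. That call was lost with the 12 short-day arrays alone, with either array set alone, without centring, with a pseudocount of 16 and without a variance trend. The amplitude ran from 0.68 to 0.88 across the alternative fits described below. Of 4 further NR1D2 probe sets, 3 peaked between 20.4 and 21.3 h with amplitudes of 0.54, 1.0 and 0.62, and 1 dim probe set peaked at 8.27 h with 0.32. None of these 4 passed.

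CRY1, a repressor of the ARNTL complex, came next by p-value. It had intensities of 413 and 478 at ZT2, 462 and 420.5 at ZT6, 369.5 and 396 at ZT10, 301 and 279 at ZT14, 188 and 146 at ZT18, and 122 and 254 at ZT22. Values from ZT2 to ZT10 all lay above those from ZT14 to ZT22. The amplitude was 0.77 ± 0.13 and the peak ZT 6.72 ± 0.66 h, with adjusted p = 0.05976, which missed the threshold of 0.05 but passed with the array number as a block (0.0285). A dimmer probe set of CRY1 that was above background on 12 of 12 arrays peaked at 4.20 h with an amplitude of 0.66.

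The activators ARNTL and NPAS2 had their highest values around the middle of the 24 h cycle, and neither passed in the fit to centred values. ARNTL (also called BMAL1) had intensities of 110.0 and 65.9 at ZT2, 162 and 75.4 at ZT6, 194 and 97.5 at ZT10, 165 and 120 at ZT14, 70.8 and 46.1 at ZT18, and 50.5 and 36.8 at ZT22. The array numbered 1 was the higher at each time, and within each array set the lowest value was at ZT22. Its amplitude was 0.82 ± 0.17 and its peak hour 9.70 ± 0.79 (adjusted p = 0.3274). The ARNTL cosine passed with quantile normalization (adjusted p = 0.0214) and with the array number as a block (0.0435). A dimmer ARNTL probe set, above background on 10 of 12 arrays, peaked at 8.56 h with an amplitude of 0.56. One above background on 6 of 12 peaked at 5.18 h with 0.45, and one on 1 of 12 at 2.55 h with 0.31. None of these dimmer probe sets passed. The NPAS2 amplitude was 0.63 ± 0.20 and its peak hour 10.6 ± 1.19 (adjusted p = 0.9999), with 20.0 and 18.9 at ZT22 and 57.5 and 62.7 at ZT14. CLOCK, the usual partner of ARNTL, had an amplitude of 0.06 ± 0.14 on its brightest probe set. A second CLOCK probe set, also above background on 12 of 12 arrays, had 0.37 with a peak at 7.63 h. Neither passed.

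PER2 and PER3, the PERIOD repressors measured here, were dim, above background on 8 and 7 of 12 arrays. Their amplitudes were 0.68 ± 0.30 for PER2, which peaked at 22.9 ± 1.66 h, and 0.35 ± 0.26 for PER3, and that of CRY2 was 0.46 ± 0.20, and none of the 3 passed. Another PER2 probe set, above background on 7 of 12 arrays, peaked at 15.5 h with an amplitude of 0.74. The remaining PER2 probe sets, above background on at most 3 of 12 arrays, peaked at 22.3, 1.61, 5.89 and 6.08 h. No PER2 probe set passed, and their peak hours disagreed. Of the 7 measured clock repressors (of 11 listed), 0 passed the cosine, and of the 10 measured output and stabilising genes (of 13), only NR1D2 did. The cosine called 5 of all 13009 genes. NFIL3, a repressor of D-box genes, had 75.8, 71.7, 83.8 and 79.4 on lit arrays and 45.0, 52.5, 39.3 and 19.4 on dark ones, without overlap (amplitude 0.68 ± 0.19, peak 5.86 ± 1.07 h, adjusted p = 0.9999). BHLHE41, a repressor that competes at E-boxes, peaked at 22.5 ± 1.13 h with an amplitude of 0.49 ± 0.14 (adjusted p = 0.9999). HLF, TEF and RORA had amplitudes of 0.27, 0.12 and 0.09, at or below the median of 0.28 for all genes. The median was 0.17 for the 5400 genes above background on 12 of 12 arrays, and HLF lay above that. NR1D1, DBP and CIART were not analysed here.

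**Figure D3:**
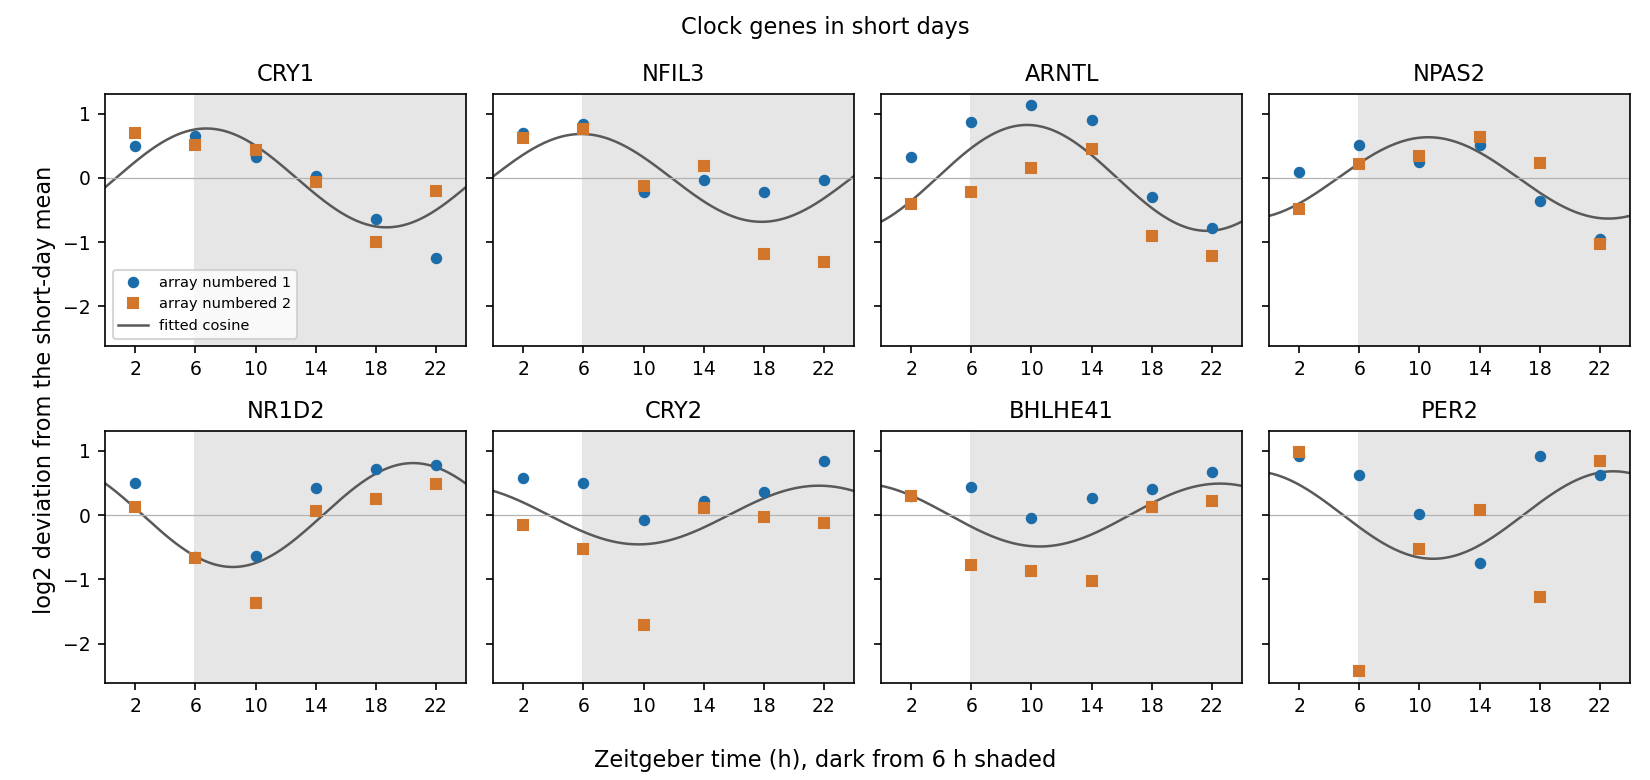
Deviation of each short-day array from the short-day mean (log2) for 8 clock genes against zeitgeber time, with circles and squares for the arrays numbered 1 and 2, the fitted 24 h cosine as a line and the dark shaded. The fitted peak was at 20.5 h for NR1D2, the only one of the 8 that passed the cosine test, at 6.72 h for CRY1 and at 9.70 h for ARNTL.

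Both unnamed probe sets passed the cosine test. The first had the smallest cosine p-value of all probe sets, with intensities of 986 and 945 at ZT2, 679.9 and 687 at ZT6, 173 and 128 at ZT10, 158 and 113 at ZT14, 447 and 298 at ZT18, and 793 and 725 at ZT22. The 2 arrays agreed closely at ZT2, ZT6 and ZT22 and less closely at ZT10, ZT14 and ZT18. The level was high again at ZT22, before lights on. Its cosine amplitude of 1.54 ± 0.12 peaked at hour 0.96 ± 0.29 (adjusted p = 1.073e-08), and it was 1.87 ± 0.20 higher in the light than in the dark (adjusted p = 2.209e-05). It also stood apart at ZT2 (1.55 higher, adjusted p = 0.00333), at ZT10 (-1.67, adjusted p = 9.754e-04) and at ZT14 (-1.85, adjusted p = 2.937e-04). The second unnamed probe set had 1087 and 428 at ZT2, 1146 and 918 at ZT6, 929.6 and 609 at ZT10, 830.2 and 349 at ZT14, 346 and 239 at ZT18, and 389 and 335 at ZT22. The array numbered 1 was the higher at each time, and both sets had their highest value at ZT6 and their lowest at ZT18. It had a cosine amplitude of 0.87 ± 0.15 that peaked at hour 6.92 ± 0.65 (adjusted p = 0.04569), and the call was lost in 8 of 12 fits that left out 1 array (the first of ZT10, the second of ZT14, or either of ZT6, ZT18 or ZT22; adjusted p up to 0.423).

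A dim probe set of NEO1, the netrin receptor neogenin, was called by the F test (adjusted p = 0.003338) and as lower at ZT10 (adjusted p = 1.082e-04). It had 0.09 and 2.29 at ZT10, not above background on either array, and 23.9 to 46.2 on the other 10. Against the background level it was at least 1.67-fold higher at the other times. The brighter NEO1 probe set, with a mean of 216, had an amplitude of 0.17 and passed no test, so the 2 probe sets disagreed. SH3BP4, also dim, passed no test but was among the 10 genes with the smallest cosine p. Its amplitude was 1.45 ± 0.28 with a peak hour of 2.02 ± 0.73 (adjusted p = 0.1859). Light minus dark was 2.18 ± 0.50 (adjusted p = 0.4794), with 24.3 to 44.7 on lit and 2.11 to 19.4 on dark arrays. SH3BP4 lay above background on 4 of 4 lit and 1 of 4 dark arrays.

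Genes of the thyroid hormone pathway other than CGA did not pass. DIO2, the deiodinase that activates thyroxine, had 24.7 and 46.4 at ZT2, 54.3 and 41.9 at ZT6, 91.2 and 72.1 at ZT10, 94.2 and 79.2 at ZT14, 59.8 and 80.3 at ZT18, and 48.7 and 63.0 at ZT22. The lit arrays lay below the 4 dark arrays, with the highest values at ZT10 and ZT14. Without centring the lit and dark arrays overlapped for DIO2. The cosine amplitude of 0.61 ± 0.13 peaked at hour 13.98 ± 0.83 (adjusted p = 0.4673). DIO3, which inactivates thyroid hormone, had an amplitude of 0.30 ± 0.16. Of the 17 measured genes on this list (of 19), 1 rose in the light (CGA) and 0 fell, against 6 and 0 of all 13009 genes. The estimate was above 0 in 5 of the 17 (51.5% of all genes), with a list median of -0.16. Without the first ZT14 array 9 of 17 were above 0, with a median of 0.0013, and without the second ZT2 array 8 of 17, with a median of -0.03. All genes moved up as well. Of 13009 genes, 7328 were above 0 without the first ZT14 array and 7474 without the second ZT2 array, with a median of 0.07 in each case. For the list, further arrays were left out in the same way. The median was -0.08 without the first ZT18 array, and it was -0.26 without the first ZT2 or the second ZT14 array.

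None of the measured hypothalamic peptides passed a test. VIP averaged 2117 ± 216 in the light and 1921 ± 196 in the dark, NPY 3920.0 ± 447 in the light and 3981 ± 1270.0 in the dark, and POMC 261 ± 83.1 in the light and 271 ± 56.6 in the dark. Their cosine amplitudes were 0.12 ± 0.09, 0.19 ± 0.10 and 0.26 ± 0.14, below the median of 0.28 for all genes. Against the median of 0.17 for the 5400 genes above background on 12 of 12 arrays, VIP lay below and NPY and POMC above. Of 19 feeding peptides and receptors and 12 other hypothalamic peptides measured, 0 passed the light minus dark test and 0 the cosine. Those tests called 6 and 5 of all 13009 genes. PMCH, the melanin-concentrating hormone, had the clearest cosine among feeding peptides above background on 12 of 12 arrays, where 0.56 ± 0.20 log2 units peaked at hour 6.10 ± 1.34 (adjusted p = 0.9999).

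No gene of the remaining lists passed the light minus dark test or the cosine. EGR1, an immediate early transcription factor induced by neuronal activity, had 1379, 1164, 861 and 1115 on lit arrays and 590.5, 378, 465 and 272 on dark ones, without overlap (1.44 ± 0.49, adjusted p = 0.9997). It and HOMER1 were the 2 of 15 measured immediate early genes whose lit arrays lay above the dark ones (1.51% of all genes). That count was 1 without centring (68 of all 13009 genes), with quantile normalization (212) or with a pseudocount of 16 (124). It was 4 without the second ZT6 array, where 427 of all genes lay wholly above, against 197 with all arrays. LSS, lanosterol synthase of the cholesterol pathway, averaged 138 ± 38.5 in the light and 238 ± 44.6 in the dark, also without overlap (-0.81 ± 0.23, adjusted p = 0.9997). The groups did overlap for LSS without centring and with a pseudocount of 16. The other 16 measured cholesterol genes overlapped between the groups, and their estimates fell on both sides of 0. Of all genes, 1.08% lay wholly below in the light and 1.51% wholly above. None of the 62 ribosomal protein, 64 respiratory chain, 24 proteasome, 21 translation factor or 15 glycolysis genes measured passed, and their median amplitudes lay between 0.11 and 0.16 log2 units.

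Markers of glia and other cell types gave no call either. The 12 oligodendrocyte markers summed to 8277 to 11010 on lit and 9474 to 13580 on dark arrays, with a median light minus dark of -0.32, and UGT8, a myelin lipid enzyme, gave -0.61 ± 0.27 (adjusted p = 0.9997) and -0.36 without the first ZT14 array. The 10 astrocyte markers summed to 7045 to 8490 on lit and 8352 to 9962 on dark arrays. Their median light minus dark was -0.18, with 4 of 10 above 0 (51.5% of all genes). That median ranged from -0.25 to 0.01 when 1 lit or dark array was left out. The 0.01 came without the second ZT2 array, where the median of all genes was 0.07. GLUL, glutamine synthetase, gave -0.73 ± 0.32 (adjusted p = 0.9997), which became -0.25 without the second and -1.20 without the first ZT6 array. Sums of the neuron markers were 23280 to 25910 on lit and 20680 to 26140 on dark arrays, and those of the tanycyte and radial glia markers 6198 to 7677 on lit and 6147 to 8161 on dark arrays. Of the 9 choroid plexus markers, FOLR1 lay higher on all 4 lit arrays (34.1 ± 6.82 in the light, 12.2 ± 9.04 in the dark, against 1.51% of all genes). FOLR1 was above background on 2 of the 4 dark arrays. Its light minus dark was 0.61 among arrays numbered 1 and 2.70 among those numbered 2. AQP1 lay lower on all 4 lit arrays (120 ± 44.8 in the light, 255 ± 103 in the dark, against 1.08% of all genes). Without centring the groups overlapped for both FOLR1 and AQP1, and with a pseudocount of 16 they overlapped for AQP1. Neither passed light minus dark (adjusted p = 0.9997 for each). The part of cell composition in the light minus dark results was not tested.

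The fitted peak hours of the genes described above, whether or not they passed the cosine, were spread over the whole cycle. Of genes that passed it, the 3 chaperones peaked between ZT 2.99 and 5.23 h, CGA at 5.97 h and NR1D2 at 20.5 h. CRY1 at 6.72 h, the activators ARNTL and NPAS2 at 9.70 and 10.6 h, and DIO2 at 13.98 h did not pass. Neither did RANBP3 at 15.96 h (cosine adjusted p = 0.3048) or RBM3 at 16.8 h (0.9999). Across the alternative fits described below, peaks ran from 5.80 to 7.53 h for CRY1, 9.165 to 10.28 h for ARNTL and 9.18 to 11.81 h for NPAS2. They ran from 12.98 to 15.71 h for DIO2, 15.39 to 16.49 h for RANBP3 and 15.735 to 18.35 h for RBM3. Over all 16662 probe sets above background on at least 6 arrays, 157 had an unadjusted cosine p under 0.01 (0.942%), where a flat distribution gives 167. Of these 157, 35 peaked from ZT0 to ZT4, 35 from ZT4 to ZT8, 18 from ZT8 to ZT12, 20 from ZT12 to ZT16, 16 from ZT16 to ZT20 and 33 from ZT20 to ZT24.

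**Figure D4:**
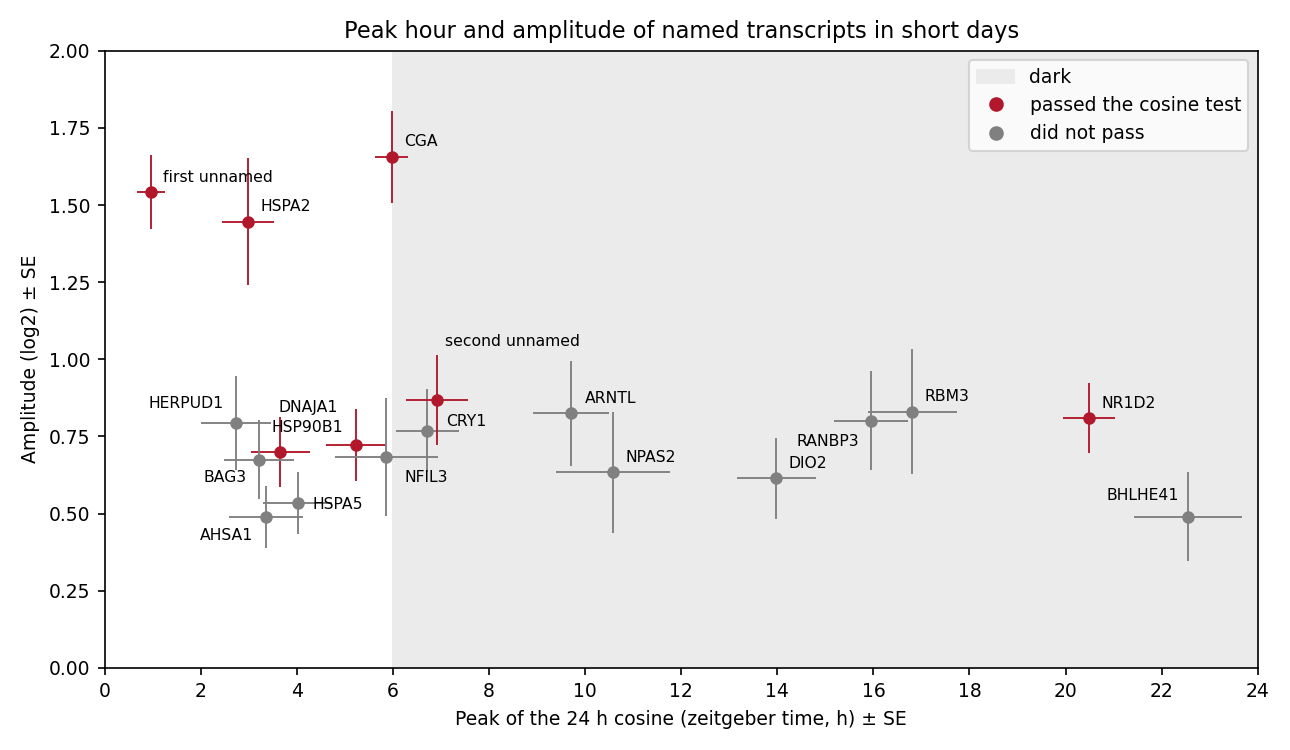
Peak hour of the 24 h cosine (zeitgeber time, h, ± SE) against its amplitude (log2, ± SE) for 19 named transcripts and probe sets, with those that passed the cosine test in red and the dark shaded. CGA, HSPA2 and the first unnamed probe set had amplitudes of 1.66, 1.45 and 1.54, and all others shown were below 1.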

How the data were processed

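Probe set intensity was deposited on a linear scale (0.0275 to 13690). GCOS 1.2 is named in the submitters' processing notes, and which scaling it applied is not given in the sources used here. Of 38535 probe sets, 96 controls were left out. Values were taken as log2(intensity + 1.497), the pseudocount being 10% of the overall median, and centred by array, so changes of dim probe sets are understated. limma 3.58.1 in R 4.3.3 fitted all 24 arrays, because a group has 2: group means for contrasts within short days (12 residual degrees of freedom), and a cosine and sine (18), with a mean-variance trend and Benjamini-Hochberg adjustment over 38439 probe sets at 0.05. No contrast with long days was taken.

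Platform annotation, which can be old, gave 1 symbol to 27168 probe sets, several to 177 and none to 11094. The brightest probe set by mean over all arrays stands for a gene (13009 genes, 10720 of them in the Coturnix japonica 2.1 gene table). Probe sets ending in _s_at or _a_at can match related transcripts. Genes to name were drawn from those that passed a test and the 10 smallest p of a test with under 10 calls. Up to 4 members of each list by cosine p and a set of 38 symbols, of which 31 were measured, were added. Not all of these genes are described. Further list members stand with their list. Members, lists and the background rule were chosen with earlier results of these data known. The fits were tested on simulated data. Alternatives were other scalings, pseudocounts of 1 and 16, filters of the dimmest 25% and 50%, array weights, other variance models, a replicate block, each array set, other lit or dark times, and leaving out each array. List medians under these were added after seeing the data. No sequence or coordinate is given, since no genome of the array's species was used here.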

Additional observations from a re-analysis of the deposited data

Results flagged for a closer look

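Among the 11 called probe sets, 22 groups of 4 lit or 4 dark arrays were examined for an array far from the other 3. The second BAG3 probe set was the 1 case: its first ZT18 array, at an intensity of 182, stood above the other dark arrays (141 to 147), with a gap of 0.8306 of the group's range, past Dixon's critical value for 4 arrays. Chance alone flags about 5% of such groups. The value lies below all 4 lit arrays of that probe set (246 to 542).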

How the results depend on the processing

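The counts of calls moved with the processing, in the order light minus dark, cosine, F test and single time (7, 7, 6 and 8 as reported). They were 1, 2, 0 and 1 without centring, 3, 3, 3 and 2 with a pseudocount of 16, 4, 2, 3 and 5 with the 12 short-day arrays alone, and 1, 2, 2 and 1 without a variance trend. The single time count was 18 with quantile normalization and 14 with robust variances. The cosine called 3 among arrays numbered 1 alone and 2 among those numbered 2, where the other tests had no residual degrees of freedom. Leaving out 1 array gave 4 to 39, 4 to 8, 4 to 37 and 6 to 170 calls. The highest came without the first ZT14 array, where ZT14 is left with 1 array of 1 set and is assumed to vary like the other groups. Light minus dark and the cosine of CGA, and the cosine of the first unnamed probe set, passed under all 25 alternatives run on each, and no light minus dark estimate of the 41 probe sets checked one by one changed sign. List medians near 0 did change sign, among them those of the thyroid hormone, astrocyte and clock activator lists and of all genes (0.01, and -0.04 without the second ZT14 array). Light minus dark lost its call under 2 of 25 alternatives for HSPA2 and the first unnamed probe set, 5 for HSPA5, 9 for HSP90B1, 11 for DNAJA1 and 12 for BAG3. The cosine lost it under 6 for NR1D2 and HSPA2, 11 for DNAJA1, 12 for HSP90B1 and 16 for the second unnamed probe set. With the 12 short-day arrays alone the cosine call was lost for each of these. The cosine of CRY1 passed under 4, with adjusted p from 0.0285 upward.

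Replicate numbers are shared between times, but same-numbered arrays are from different birds, and their deviations correlated at 0.0328 to 0.1242 over 15 pairs, above 0.1 in 6, so by the rule of 0.1 in every pair the numbers were not taken as pairs, although all 15 were above 0. With the replicate block the counts were 13, 11, 11 and 21. Light minus dark then also passed for both HSP90AA1 probe sets, HERPUD1, RANBP3, the second BAG3 probe set and the second unnamed probe set (adjusted p from 0.00426 to 0.038), and the cosine for ARNTL, CRY1, HSP90AA1 and HERPUD1 (0.0285 to 0.0435). The causes of these changes were not tested. Signal over background limits what can be said of TSHB, PER2 and PER3.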
